A study of Drosophila melanogaster with 24 samples.

Results

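The difference described here is the effect of methylmercury (MeHg) on the indirect flight muscles (IFM) of adult Drosophila melanogaster minus its effect on the same muscles in the pupa. It was taken over all 12 IFM libraries of a series of 24 libraries, and it was called in 305 of 11347 genes tested, or 2.69%. The remaining 12 libraries came from the ventral nerve cord (VNC), the trunk part of the fly's central nervous system, and are used only as a second tissue. The 4 muscle groups had 3 libraries each: adults at 15 days that had fed as larvae on 5 µM MeHg chloride, adults of that age whose larval food held the solvent alone, pupae at 30 h after puparium formation from the MeHg food, and pupae of that age from the solvent food. The solvent was 0.01% DMSO, given to all groups. Per the labels' protocols, exposure began in the first larval instar, every adult lived on food free of MeHg after eclosion, both sexes were mixed, and a replicate pooled the muscles of 50 animals fixed in Methacarn. The adult effect is therefore measured after 15 days on food free of MeHg, and the pupal effect in animals that still carry the compound, per the series' design text. Mercury levels were not among the data used here, so what adults still carried is not known. Strain and genotype are not given in the sources used here.

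MeHg is an organic form of mercury that binds thiol groups, and glutathione with its transferases is a main route by which cells bind and export it. The indirect flight muscles are large fibres of the thorax that power the wings. At the pupal stage sampled, myoblasts are still fusing and the fibres are being laid down, whereas the adult muscle is a finished contractile tissue rich in mitochondria. The same larval exposure is thus read in a muscle under construction and in the muscle that resulted.

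Of the 305 called genes, 172 (1.52% of those tested) had a higher log2 change in adults than in pupae and 133 (1.17%) a lower one. Log2 changes are MeHg over control, and the interaction is the adult log2 change minus the pupal one, so that 1 unit is a 2-fold difference between the stages. A gene is called when the quasi-likelihood F test of edgeR gives a Benjamini-Hochberg adjusted p under 0.05 over all genes tested, which also gives each adjusted p printed for a gene. In 178 called genes the stages differed 2-fold or more, and 299 of the 305 were protein coding. The adult effect on its own was called in 862 genes (7.6%), with 416 higher (3.67%) and 446 lower (3.93%). The pupal effect was called in 341 genes (3.01%), with 104 higher (0.917%) and 237 lower (2.09%). Of the 341 genes called in pupae, 117 were called for the interaction, and of the 862 called in adults, 171 were. Over all genes tested 2.69% were called for it. The interaction contains the effect at each stage, which itself favours such an overlap.

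The 305 genes fell into 3 patterns. In 107 reversing genes the MeHg effect had opposite signs at the stages, with an unadjusted p under 0.05 at each. In 87 fading genes the pupal effect was called and the adult one was smaller. In 108 appearing genes the adult effect was called and the pupal one was smaller, and 3 genes met none of these rules. The sorting used the same fit as the interaction, so the patterns describe the genes and carry no test. Opposite signs at the stages occurred in 255 of the 305 called genes and in 5357 of all 11347. A called interaction is a large difference between the stages, which itself favours opposite signs. The reversing genes had separate ranges of the MeHg and the control libraries at both stages in 90 of 107 cases, against 973 of all genes tested (8.57%), a count that the sorting itself favours. At the edge of the threshold, tyf and CG9775 stood just inside, at an adjusted p of 0.0499 each, and Adsl and CG4558 just outside, at 0.05001 each.

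**Figure D1:**
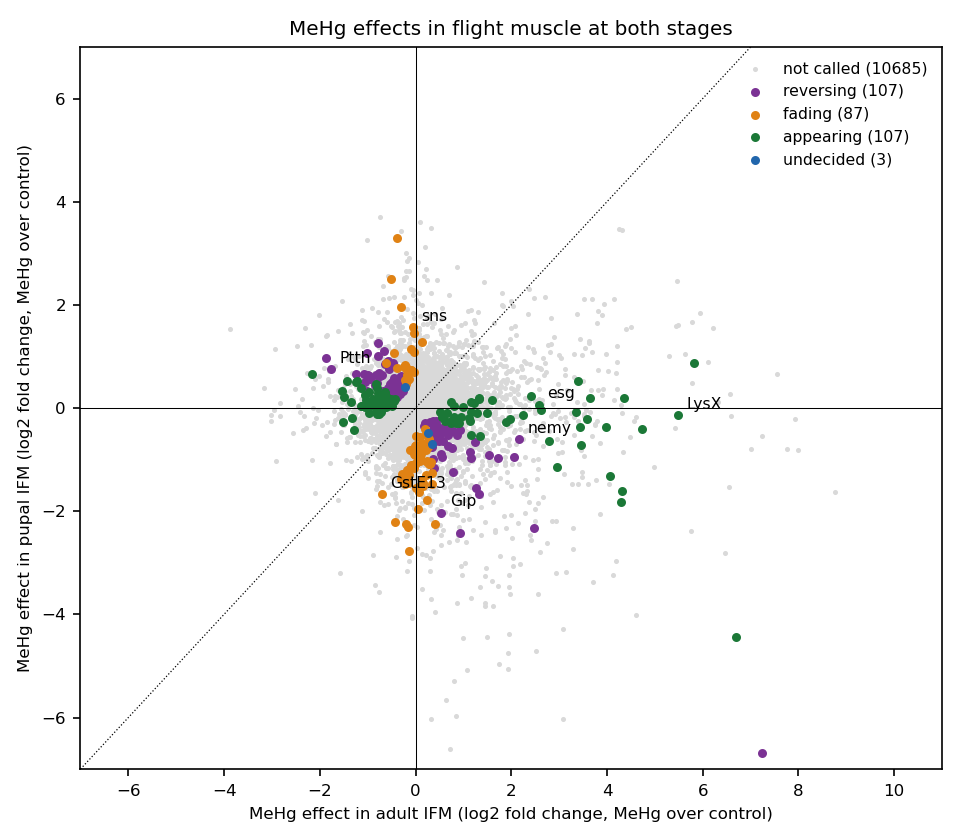
Each point is a gene, with its MeHg effect in adult muscle on the horizontal axis and its effect in pupal muscle on the vertical axis, both as log2 fold change of MeHg over control. Reversing genes lie in the upper left and lower right quadrants, fading genes along the vertical axis and appearing genes along the horizontal axis. The dotted line marks equal effects, and 358 genes with no counts in all libraries of a group, 1 of them called, are left out, and 3 uncalled genes lie outside the axes.

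All 12 libraries held 17069392 to 36295687 counts, with 4.19 to 5.44% of them on ribosomal RNA genes in MeHg adults and 5.18 to 8.06% in control adults, and 1.39 to 1.5% in MeHg pupae and 1.80 to 2.93% in control pupae. The 7 flight muscle markers were present in every group, with summed levels of 42000 to 50500 CPM in MeHg adults, 54100 to 74200 CPM in control adults, 49000 to 63800 CPM in MeHg pupae and 50400 to 59500 CPM in control pupae. CPM are counts per 1000000 counts of a library after TMM scaling. In bulk tissue, fewer cells of a type and less RNA per cell cannot be told apart. The library titles carry a tag whose meaning is not stated: in each pupal group replicate 1 has the tag 7_1 and replicates 2 and 3 have 7_7, and all adults have 7_10 except MeHg replicate 4, which stands alone with 7_28. With the tag as a batch term no gene was called for the interaction, nor among the libraries of tags 7_7 and 7_10 alone. All 305 genes kept their sign in both fits, which reuse the libraries that gave the calls, so a kept sign is favoured. The first of these fits spends the lone adult library on its own term, and the second leaves out that library and both pupal replicates 1.

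In 10 genes the reversal was called at both stages on its own. Sclp, Gk2, CG16986 and GstO2 rose in MeHg adults and fell in MeHg pupae. CG5080, Atet, rpr, smash, CG31145 and Mink fell in MeHg adults and rose in MeHg pupae. These 10 were among 38 genes called at both stages, of which 28 kept one direction, 7 higher and 21 lower. Among those 28 are the copper importer Ctr1A and the haemocyte phenoloxidase PPO3, lower at both stages, and the cell adhesion molecule Fas2, higher at both.

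GstO2 encodes an omega-class glutathione transferase, and lies on chromosome 3L at 8521429 to 8523501 (all coordinates are of the Release 6 assembly, dm6). It had 110, 94.6 and 106 CPM in MeHg adults, against 66.3, 73.1 and 74.5 CPM in control adults. It had 21.8, 24.9 and 24.1 CPM in MeHg pupae, against 30.3, 32.8 and 35.2 CPM in control pupae. The groups did not overlap at either stage. The adult log2 change was 0.54 ± 0.09 (SE, adjusted p = 0.0102), the pupal one −0.48 ± 0.09 (adjusted p = 0.023), and the interaction 1.01 ± 0.13 (adjusted p = 0.0124). Its pupal change was −0.47 in each of the tags 7_1 and 7_7, and its adult change 0.52 within tag 7_10.

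Gk2 encodes a glycerol kinase, which feeds glycerol into lipid and energy metabolism. Its levels were 64.1, 65.5 and 63.4 CPM in MeHg adults and 42, 48.8 and 44.4 CPM in control adults. In pupae they were 43.2, 38.6 and 36.7 CPM with MeHg and 50.6, 53.8 and 51.2 CPM without. The MeHg adults were the highest of the 4 groups and the MeHg pupae the lowest on average, with an interaction of 0.91 ± 0.12 (adjusted p = 0.0124). Sclp had 14.6, 21.5 and 16.5 CPM in MeHg adults against 8.97, 9.5 and 12.3 CPM in control adults, and 87.7, 86.8 and 72 CPM in MeHg pupae against 131, 156 and 136 CPM in control pupae. The gene was lower in adults than in pupae in every library, while the MeHg libraries were above their controls in adults and below them in pupae (interaction 1.55 ± 0.23, adjusted p = 0.0136). CG16986 moved the same way, with an adult log2 change of 1.13, a pupal one of −0.85 and an interaction of 1.98 ± 0.27 (adjusted p = 0.0124).

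The cell death gene rpr, whose product binds and removes the inhibitor of apoptosis protein Diap1, went the other way. It had 4.58, 5.94 and 5.46 CPM in MeHg adults, against 10.2, 7.67 and 8.12 CPM in control adults. In pupae it had 35, 39 and 46.8 CPM with MeHg, against 28.8, 23 and 25.7 CPM without. MeHg and control libraries were separate at both stages, and the gene was several times higher in pupae than in adults. The interaction was −1.34 ± 0.22 (adjusted p = 0.0199), made up of an adult log2 change of −0.70 ± 0.16 (adjusted p = 0.0258) and a pupal one of 0.64 ± 0.15 (adjusted p = 0.0492). The pupal change was 0.28 within tag 7_1 and 0.81 within tag 7_7. Without MeHg pupal replicate 3 the adjusted p of the interaction was 0.0519. Of the 23 genes in the cell death list, rpr and the stress-response factor Xrp1 were called for the interaction, both below 0. Over all genes, 1.17% were called below 0. The related death gene hid had an adult change of 0.17, a pupal rise of 0.69 ± 0.16 (adjusted p = 0.0413) and an interaction of −0.52 (adjusted p = 0.233).

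The scaffold gene smash, whose product sits at epithelial cell junctions, had 436, 520 and 428 CPM in MeHg adults, against 651, 563 and 680 CPM in control adults. It had 407, 359 and 406 CPM in MeHg pupae, against 258, 235 and 295 CPM in control pupae. Both pairs of groups were separate, and the interaction was −1.03 ± 0.17 (adjusted p = 0.0195). The ABC transporter gene Atet (interaction −0.998 ± 0.16, adjusted p = 0.0183), Mink (−1.80 ± 0.26, adjusted p = 0.0134), CG5080 (−1.44 ± 0.23, adjusted p = 0.0183) and CG31145 (−0.94 ± 0.11, adjusted p = 0.0119) showed the same turn. For smash and Atet the adjusted p without MeHg pupal replicate 3 was 0.0579 and 0.0519. The calls of the 7 genes other than rpr, smash and Atet held without each library in turn.

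**Figure D2:**
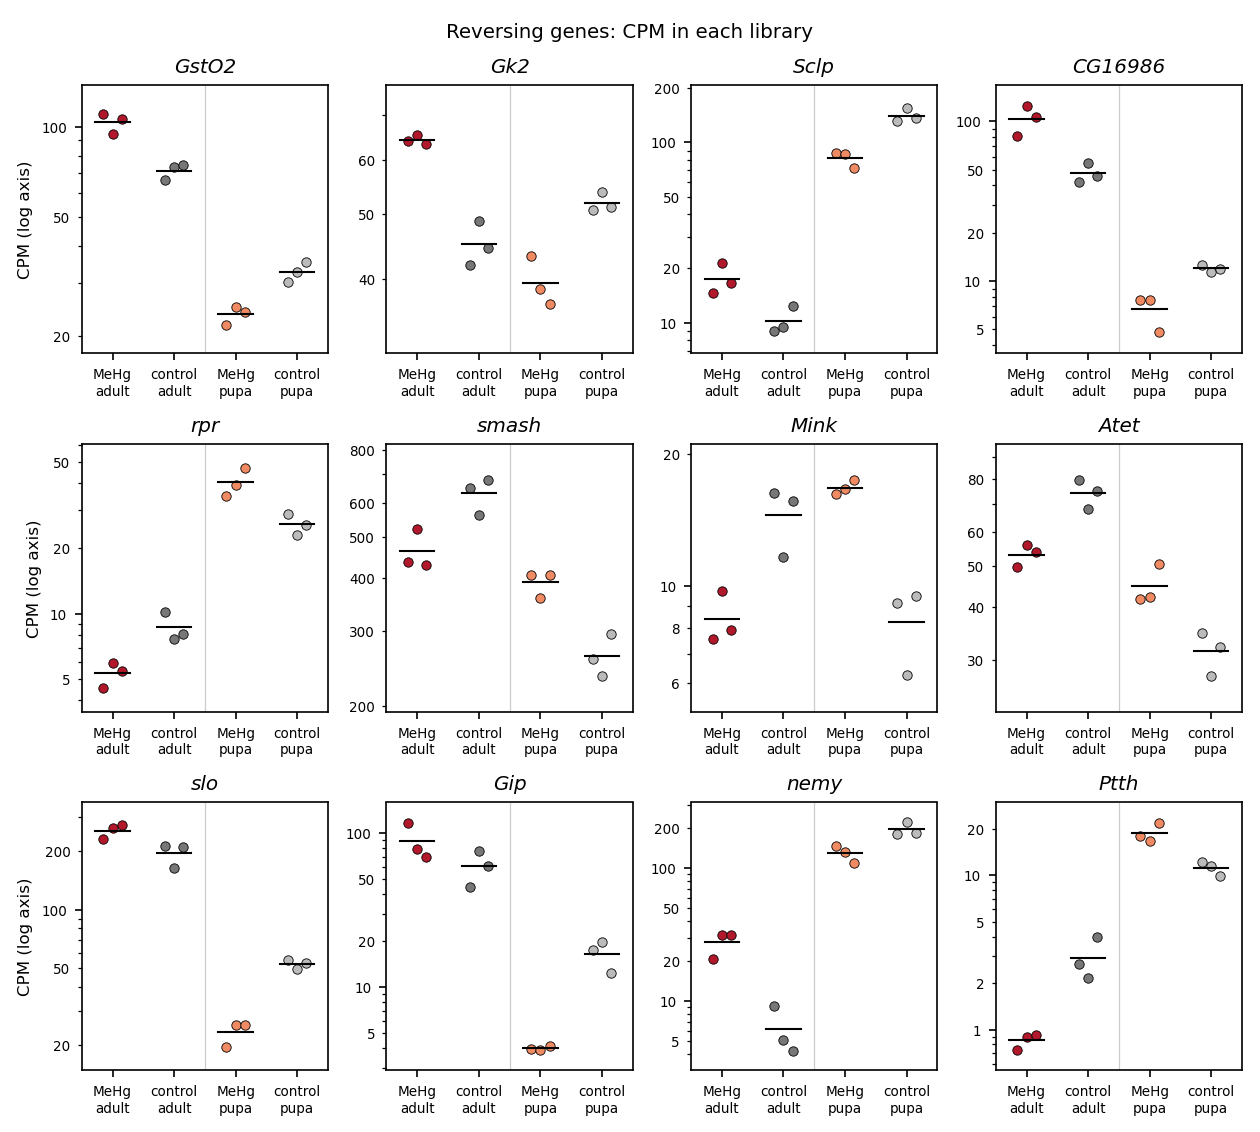
Each panel is a reversing gene, each point a library and each bar the mean of 3 libraries, in CPM on a log axis. The upper 8 panels are genes called at both stages, such as GstO2 with 94.6 to 110 CPM in MeHg adults against 66.3 to 74.5 CPM in control adults and the opposite order in pupae, and the lower 4 are slo, Gip, nemy and Ptth.

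Of the other reversing genes, slo, Gip, kdn and axed had a called fall in pupae and no called change in adults. The calcium-activated potassium channel gene slo, which sets repolarisation in fly muscle and neurons, had 232, 263 and 273 CPM in MeHg adults, against 213, 165 and 210 CPM in control adults. It had 19.4, 25.3 and 25.5 CPM in MeHg pupae, against 55.1, 49.3 and 53.2 CPM in control pupae. The adult change was 0.38 ± 0.13 (adjusted p = 0.0959), the pupal fall was called (−1.17 ± 0.13, adjusted p = 0.00206), and the interaction was 1.55 ± 0.19 (adjusted p = 0.0119). Gip, annotated as a hydroxypyruvate isomerase, had 116, 79.3 and 70 CPM in MeHg adults against 44.8, 76.7 and 60.9 CPM in control adults, which overlap. It had 3.96, 3.92 and 4.17 CPM in MeHg pupae against 17.3, 19.7 and 12.4 CPM in control pupae, which do not, and its interaction was 2.57 ± 0.35 (adjusted p = 0.0124).

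Citrate synthase, the entry enzyme of the citric acid cycle, is encoded by kdn. It had 351, 377 and 380 CPM in MeHg adults and 266, 283 and 203 CPM in control adults. In pupae it had 148, 134 and 119 CPM with MeHg and 261, 319 and 198 CPM without. The adult change was 0.56 ± 0.17 (adjusted p = 0.0695), the pupal fall was called (−0.96 ± 0.17, adjusted p = 0.0137), and the interaction was 1.52 ± 0.24 (adjusted p = 0.0183). The gene axed, known for its part in axon degeneration in fly neurons, had an adult change of 0.78 (adjusted p = 0.102), a pupal fall of −1.25 ± 0.26 (adjusted p = 0.0333) and an interaction of 2.03 ± 0.37 (adjusted p = 0.026). Its call was lost without 6 of the 12 libraries in turn, at an adjusted p of up to 0.0654. For kdn the adjusted p without MeHg pupal replicate 3 was 0.0519.

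In nemy, Ptth and vn the adult change was called and the pupal one was not. The cytochrome b561 gene nemy had 20.7, 31.3 and 31.3 CPM in MeHg adults, against 9.23, 5.09 and 4.22 CPM in control adults, and 148, 133 and 109 CPM in MeHg pupae, against 182, 223 and 184 CPM in control pupae. Its adult rise of 2.17 ± 0.28 (adjusted p = 0.00432) stood beside a pupal change of −0.60 ± 0.26 (adjusted p = 0.231), for an interaction of 2.76 ± 0.38 (adjusted p = 0.0134). Ptth, the brain hormone that drives ecdysone release, was a low-level transcript in these muscles, with 0.741, 0.895 and 0.922 CPM in MeHg adults against 2.64, 2.16 and 3.96 CPM in control adults, and 18, 16.6 and 21.7 CPM in MeHg pupae against 12.1, 11.5 and 9.87 CPM in control pupae. All 4 groups were separate, and the interaction was −2.52 ± 0.31 (adjusted p = 0.0119). The EGF receptor ligand gene vn, which muscle uses to signal to tendon cells, had 35.1, 37.5 and 29.6 CPM in MeHg adults against 67.1, 58.9 and 59.1 CPM in control adults, and 73.3, 64 and 70.9 CPM in MeHg pupae against 50.1, 45.2 and 57.1 CPM in control pupae. Its interaction was −1.31 ± 0.16 (adjusted p = 0.0119), with an adult fall of −0.86 ± 0.12 (adjusted p = 0.00432) and a pupal change of 0.45 ± 0.12 (adjusted p = 0.0623).

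The calls of slo, Gip, nemy, Ptth and vn held without each of the 12 libraries in turn, at adjusted p up to 0.0381 among them. Other reversing genes with an interaction below 0 were AkhR, the adipokinetic hormone receptor (−1.51 ± 0.29, adjusted p = 0.0279), the lipid droplet perilipin Lsd-1 (−0.84 ± 0.19, adjusted p = 0.0438), DNA topoisomerase Top2 (−0.80 ± 0.13, adjusted p = 0.0199), the Cdc25 phosphatase stg (−1.002 ± 0.21, adjusted p = 0.0327) and the flight muscle identity factor vg (−0.995 ± 0.22, adjusted p = 0.0395). In vg neither stage alone was called: its levels were 133, 167 and 131 CPM in MeHg adults against 235, 171 and 214 CPM in control adults, and 343, 270 and 269 CPM in MeHg pupae against 214, 187 and 237 CPM in control pupae. The ranges did not overlap at either stage. AkhR, Lsd-1, stg and vg each lost the call without 7 to 9 libraries in turn (adjusted p up to 0.124), stg also with limma voom (0.0999) and Lsd-1 in the fit of all 24 libraries (0.0797), and Top2 lost it without MeHg pupal replicate 2 or 3 (up to 0.0579). AkhR and Lsd-1 are strong in fat body, whose 7 markers summed to 20800 to 39000 CPM in MeHg adults against 50200 to 61000 CPM in control adults, and to 9630 to 15700 CPM in MeHg pupae against 7660 to 13800 CPM in control pupae. The part of fat body RNA in AkhR and Lsd-1 was not tested. The markers include the yolk protein genes Yp1, Yp2 and Yp3, and the part of the share of each sex in their sum was not tested. Lsp1alpha, another of the 7, rose in MeHg adults (log2 change 2.79). The haemocyte gene Hml (interaction −1.34 ± 0.26, adjusted p = 0.030) had 680, 568 and 638 CPM in MeHg adults against 644, 807 and 1150 CPM in control adults, and 9.53, 9.2 and 10.2 CPM in MeHg pupae against 4.95, 4.72 and 6.05 CPM in control pupae. All 5 haemocyte markers together, Hml included, ran from 754 to 905 CPM in MeHg adults, 881 to 1510 CPM in control adults, 102 to 127 CPM in MeHg pupae and 81.3 to 106 CPM in control pupae, and their part was not tested. The call of Hml was lost without 7 of the 12 libraries in turn, at adjusted p up to 0.0792, and with the trend of each library with gene length removed (adjusted p = 0.065).

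Fading genes, like all 341 genes called in pupae (237 lower, 104 higher), mostly fell in MeHg pupae. Of the 87, 63 had a negative pupal log2 change and 24 a positive one. Their median log2 change over both directions was −0.03 in adults and −0.90 in pupae, against −0.01 in adults and 0.00 in pupae over all genes tested. In 59 of the 87 the small adult change had the opposite sign, which the interaction call itself favours.

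Glutathione and thiol enzymes were among the genes that fell in pupae. GstE13, an epsilon-class glutathione transferase on chromosome 2R at 9122125 to 9123309, had 10.3, 10.7 and 11.2 CPM in MeHg adults, against 15.1, 17.3 and 20 CPM in control adults. It had 5.42, 7.04 and 6.28 CPM in MeHg pupae, against 21, 18.3 and 20 CPM in control pupae. It was the 1 fading gene still called in adults, with a log2 change of −0.70 ± 0.13 (adjusted p = 0.013) there and −1.66 ± 0.14 (adjusted p = 0.000869) in pupae. The interaction was 0.96 ± 0.19 (adjusted p = 0.0279).

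GstZ1, a zeta-class transferase of tyrosine breakdown, had 6.97, 7.66 and 7.45 CPM in MeHg adults against 8.15, 9.34 and 9.6 CPM in control adults, and 2.47, 2.89 and 2.47 CPM in MeHg pupae against 7.07, 7.22 and 6.14 CPM in control pupae. Its log2 change was −0.29 ± 0.14 (adjusted p = 0.211) in adults and −1.38 ± 0.14 (adjusted p = 0.00107) in pupae, and the interaction was 1.09 ± 0.19 (adjusted p = 0.0223). The calls of GstE13 and GstZ1 were each lost without 7 of the 12 libraries in turn, at adjusted p up to 0.076. The peroxiredoxin gene Prx6a had 6.27, 5.24 and 5.21 CPM in MeHg adults against 3.95, 4.71 and 5.51 CPM in control adults, and 1.27, 1.76 and 1.44 CPM in MeHg pupae against 4.68, 5.86 and 4.76 CPM in control pupae. In adults the groups overlapped, in pupae they were far apart (−1.77 ± 0.20, adjusted p = 0.00206), and the interaction of 2.01 ± 0.28 (adjusted p = 0.0124) held without each library in turn.

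KFase and Bhmt, both enzymes of amino acid metabolism, were also fading genes that fell in pupae. KFase, the kynurenine formamidase of tryptophan breakdown, had 9.15, 10.3 and 9.18 CPM in MeHg adults against 9.83, 9.88 and 13.3 CPM in control adults, and 0.509, 0.677 and 0.332 CPM in MeHg pupae against 2.82, 2.5 and 1.91 CPM in control pupae. Its interaction was 2.04 ± 0.34 (adjusted p = 0.0199; 0.0519 without MeHg pupal replicate 3). Bhmt, annotated as a betaine-homocysteine methyltransferase, had 28.5, 28 and 28.7 CPM in MeHg adults against 27.7, 28.6 and 23.3 CPM in control adults, and 13.2, 11.5 and 11.1 CPM in MeHg pupae against 33.1, 45.8 and 23.4 CPM in control pupae. The adult groups overlapped and the pupal groups did not (interaction 1.61 ± 0.28, adjusted p = 0.0205). Its adjusted p rose to as much as 0.0614 when control adult replicate 3, MeHg pupal replicate 2 or MeHg pupal replicate 3 was left out.

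Scp1, a sarcoplasmic calcium-binding protein, is a gene of mature muscle and had 1220, 2240 and 2040 CPM in MeHg adults against 2030, 1640 and 1780 CPM in control adults. In pupae it was low, with 5.24, 2.84 and 3.25 CPM in MeHg pupae against 9.89, 11.5 and 12.1 CPM in control pupae. The adult log2 change was 0.01 ± 0.24, the pupal one −1.56 ± 0.26 (adjusted p = 0.0108), and the interaction 1.57 ± 0.35 (adjusted p = 0.0435). TpnC4, the flight muscle troponin C, was sorted as reversing and was also low in pupae, with 488, 732 and 469 CPM in MeHg adults against 274, 253 and 363 CPM in control adults, but 0.145, 0.135 and 0.0369 CPM in MeHg pupae against 0.426, 1.09 and 0.345 CPM in control pupae. The groups were separate at both stages, and the interaction was 3.35 ± 0.70 (adjusted p = 0.0367). At under about 1 CPM the pupal term rests on few counts, and the calls of Scp1 and TpnC4 were each lost without 10 of the 12 libraries in turn, at adjusted p up to 0.120. That of Scp1 was also lost with limma voom, with no low-count filter and with the length trend removed (adjusted p of 0.0526, 0.0715 and 0.0505), and that of TpnC4 with limma voom and in the fit of all 24 libraries (0.111 and 0.0925).

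The fading genes that rose in pupae included receptors of myoblast fusion. The gene sns, whose product is the fusion receptor on fusion-competent myoblasts, had 29.6, 26.9 and 21.6 CPM in MeHg adults, against 24.2, 27.5 and 29.4 CPM in control adults. It had 516, 409 and 656 CPM in MeHg pupae, against 202, 117 and 212 CPM in control pupae. The adult change was −0.05 ± 0.23 (adjusted p = 0.926), the pupal rise of 1.57 ± 0.23 (adjusted p = 0.00662) was called, and the interaction was −1.63 ± 0.33 (adjusted p = 0.0323). The related receptor gene rst had 7.19, 8.49 and 7.8 CPM in MeHg adults against 9.42, 7.22 and 7.51 CPM in control adults, and 253, 213 and 288 CPM in MeHg pupae against 124, 92.2 and 140 CPM in control pupae (interaction −1.12 ± 0.24, adjusted p = 0.0362). Both genes were well above their controls in every MeHg pupal library and overlapped with them in adults. The pupal rise was 1.35 and 1.70 for sns and 1.03 and 1.11 for rst within tags 7_1 and 7_7. Their interaction calls were lost without 6 of the 12 libraries in turn for sns and 10 for rst, at adjusted p up to 0.0968, and that of rst also with limma voom (adjusted p = 0.0728).

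Of the genes of fusion and muscle identity, 36 were listed and all were tested. Of these, tx, sns, rst and vg were called for the interaction, all 4 below 0, against 1.17% of all genes. A negative interaction was found in 27 of the 36, against 5733 of all 11347, with a median of −0.44 against 0.00 over all genes. In adults 3 members rose, among them the actin nucleation subunits Arp2 and Arp3, and 1 fell, the adaptor Crk. Over all genes, 3.67% rose and 3.93% fell in adults. In pupae 7 members rose and none fell, against 104 of 11347 that rose (0.917%) and 237 that fell (2.09%) over all genes. The members that rose included the WASP-interacting protein Vrp1 (1.17 ± 0.15, adjusted p = 0.00378) and the Rac activator mbc (0.85 ± 0.16, adjusted p = 0.0156), whose interactions of −0.83 and −0.85 were at adjusted p of 0.0677 and 0.0689. Across 7729 genes, which are not independent replicates and share the same libraries, Spearman's rho of the log2 change with exonic length was 0.16 in adults, 0.41 in pupae and −0.16 for the interaction. The median exonic length was 3567 bases in this list and 1934 bases over all genes. With the trend of each library with length removed, 8 members rose and none fell in pupae, 5 were called for the interaction, all below 0, and the median interaction of the list was −0.315.

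The transcription factor genes Eip93F, vri and tx were also fading genes that rose in pupae. Eip93F, an ecdysone-induced factor that also shapes flight muscle, had an adult log2 change of −0.14 and a pupal one of 0.55 ± 0.10 (adjusted p = 0.0141). The clock repressor vri had an adult change of −0.17 and a pupal rise of 0.63 ± 0.11 (adjusted p = 0.0141), and the bHLH factor tx an adult change of −0.19 and a pupal rise of 0.53 ± 0.10 (adjusted p = 0.0189). The Eip93F interaction of −0.70 (adjusted p = 0.0308) was not called once the length trend was removed (adjusted p = 0.108), that of vri was not called in the fit of all 24 libraries (0.0804), and the calls of Eip93F, vri and tx were lost without 7 to 10 of the libraries in turn (adjusted p up to 0.0989).

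**Figure D3:**
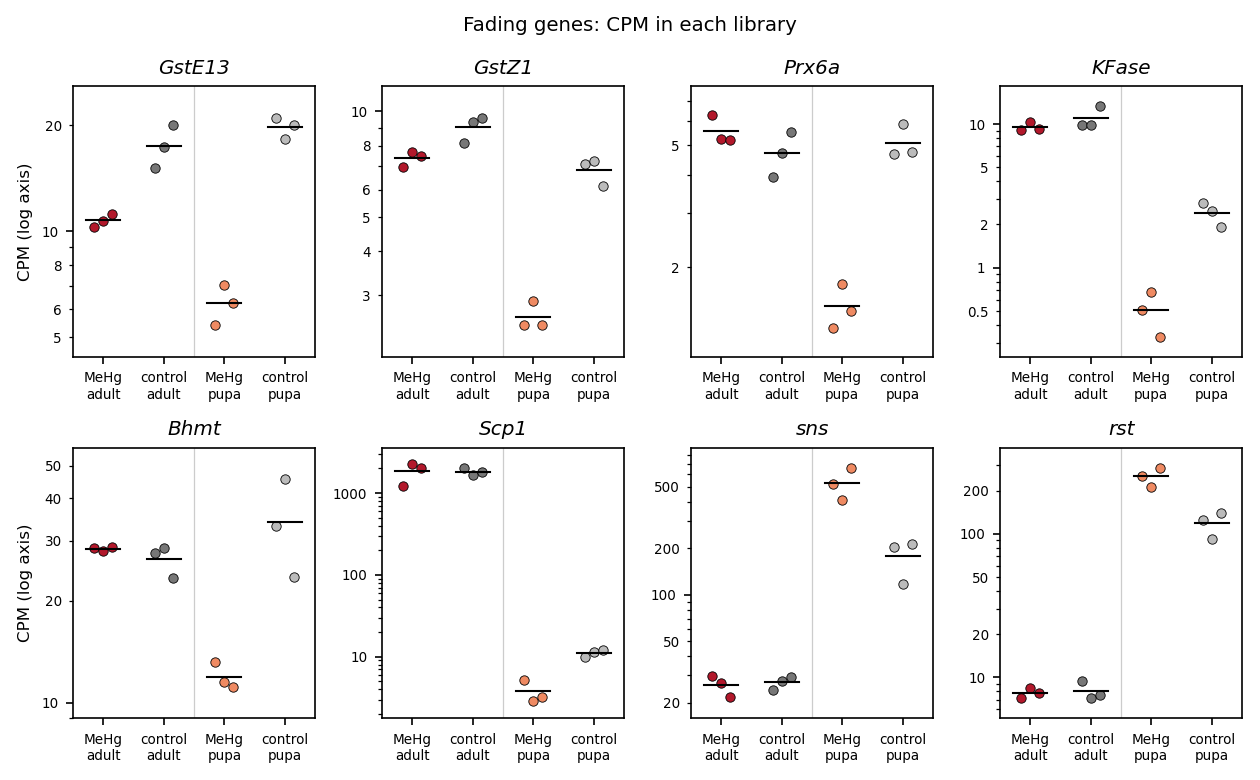
Each panel is a fading gene, each point a library and each bar the mean of 3 libraries, in CPM on a log axis. In pupae the MeHg libraries of GstE13, GstZ1, Prx6a, KFase, Bhmt and Scp1 lie below their controls and those of sns and rst above, while in adults the groups overlap for all 8 but GstE13 and GstZ1.

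Appearing genes split nearly evenly, with 58 lower and 50 higher in MeHg adults, and their median log2 change was −0.51 in adults and 0.04 in pupae. In 86 of the 108 the small pupal change had the opposite sign to the adult one, which the interaction call itself favours. Receptors, matrix and sarcomere genes were among those that fell in adults.

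The netrin receptor gene unc-5 had 3.92, 2.69 and 4.01 CPM in MeHg adults, against 12.4, 10.1 and 7.19 CPM in control adults. In pupae it had 66.3, 67.4 and 58.9 CPM with MeHg, against 52.1, 52.5 and 62.4 CPM without. The adult fall of −1.49 ± 0.20 (adjusted p = 0.00434) was separate from the controls, the pupal ranges overlapped (0.21 ± 0.19), and the interaction was −1.70 ± 0.28 (adjusted p = 0.0195). The retinol dehydrogenase gene rdhB had 1.22, 1.49 and 1.84 CPM in MeHg adults against 4.07, 4.86 and 4.41 CPM in control adults, and 12.5, 17.1 and 19.2 CPM in MeHg pupae against 14.3, 10.4 and 14.3 CPM in control pupae. Its interaction was −1.86 ± 0.29 (adjusted p = 0.0172), and like that of unc-5 it was called without each library in turn. The tetraspanin gene Tsp42Eh had 66.5, 53.9 and 42.6 CPM in MeHg adults against 132, 121 and 163 CPM in control adults, and between 1.86 and 2.39 CPM in all pupae (interaction −1.48 ± 0.25, adjusted p = 0.0202; up to 0.0519 without MeHg pupal replicate 2 or 3, and 0.0724 with limma voom).

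The giant sarcomere protein of the titin family is encoded by sls. It had 13300, 14000 and 12300 CPM in MeHg adults, against 24700, 18100 and 24800 CPM in control adults. In pupae it had 13800, 10800 and 11800 CPM with MeHg, against 8770, 9810 and 11200 CPM without. All MeHg adults lay below all control adults, the pupal groups overlapped, and the interaction was −1.06 ± 0.21 (adjusted p = 0.0308). The myosin chaperone gene unc-45 fell in adults by 0.64 on the log2 scale (interaction −0.73 ± 0.16, adjusted p = 0.038), and the integrin-linked kinase Ilk, which anchors the fibre ends, had 172, 186 and 171 CPM in MeHg adults against 258, 252 and 381 CPM in control adults (interaction −0.98 ± 0.20, adjusted p = 0.0311). The basement membrane protein nidogen (Ndg, interaction −1.31 ± 0.26, adjusted p = 0.0308) and the activin-like ligand daw (−1.29 ± 0.30, adjusted p = 0.0499) also fell in adults and were not called in pupae. The pupal ranges of unc-45, Ilk and Ndg were separate too, with MeHg above control, although none was called there. The calls of sls, unc-45, Ilk, Ndg and daw were lost without 8 to 12 of the libraries in turn, at adjusted p up to 0.118, and that of sls also in the fit of all 24 libraries (adjusted p = 0.0856). The call of daw was lost as well with RLE scaling, limma voom, no low-count filter and the length trend removed, the last at an adjusted p of 0.0537.

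Of 34 contractile genes, sls and unc-45 were called below 0 and TpnC4 above 0, and the median interaction was −0.08. Over all genes, 1.17% were called below 0 and 1.52% above 0. The flight muscle actin Act88F fell in MeHg adults (−1.28 ± 0.20, adjusted p = 0.00776), with a pupal change of −0.24 ± 0.20 and an interaction of −1.04 ± 0.28 that was not called (adjusted p = 0.0817). Myosin heavy chain (Mhc) had an interaction of −0.02 ± 0.27 (adjusted p = 0.992), and its sign differed among alternatives. The flight muscle protein flightin (fln) fell in pupae (−1.09 ± 0.23, adjusted p = 0.0289), with an interaction of 0.87 ± 0.31 (adjusted p = 0.161). Of 32 attachment and integrin genes, vn, Ndg and Ilk were called, all below 0, against 1.17% of all genes. A negative interaction was found in 22 of the 32, against 5733 of all 11347, with a median of −0.24 that was −0.10 with the length trend removed. The integrin alpha subunit scb rose in adults (1.40 ± 0.20, adjusted p = 0.00504), with an interaction of 1.12 (adjusted p = 0.0608). These adult falls stood in libraries whose summed flight muscle markers, sls and Act88F among them, did not overlap between MeHg and control adults, as given above.

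Signalling genes that fell in adults by smaller amounts were the MAP3 kinase Tak1, with 192, 172 and 183 CPM in MeHg adults against 312, 287 and 353 CPM in control adults, and 118, 106 and 103 CPM in MeHg pupae against 117, 120 and 119 CPM in control pupae (interaction −0.67 ± 0.13, adjusted p = 0.028). The insulin pathway kinase Akt (−0.66 ± 0.15, adjusted p = 0.0441) and the bZIP factor Xrp1 (−0.61 ± 0.13, adjusted p = 0.0367) were of similar size. The pupal ranges of Xrp1 were separate too, with MeHg above control (0.18 ± 0.09, adjusted p = 0.313). The calls of Tak1, Akt and Xrp1 were lost without 9 or 10 of the libraries in turn, at adjusted p up to 0.126, and that of Akt also with the length trend removed (adjusted p = 0.0572).

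Among genes that rose in adults, the Snail-family factor esg, known from stem and imaginal cells, had 8.28, 8.06 and 15.2 CPM in MeHg adults, against 1.27, 2.77 and 1.29 CPM in control adults. It had 26.1, 24 and 22.4 CPM in MeHg pupae, against 24, 15.5 and 29.6 CPM in control pupae. The adult rise was 2.57 ± 0.37 (adjusted p = 0.00549) and the interaction 2.51 ± 0.50 (adjusted p = 0.0308). The gene is also a member of the tracheal list, and the 4 tracheal markers, which do not include it, summed to 47.8 to 58.5 CPM in MeHg adults against 37.2 to 46.6 CPM in control adults, and to 39.3 to 48.4 CPM in MeHg pupae against 35.9 to 37.5 CPM in control pupae. The part of tracheal RNA in esg was not tested. The delta-class glutathione transferase gene GstD10 had 9.11, 11.3 and 8.72 CPM in MeHg adults against 1.72, 2.96 and 1.45 CPM in control adults, and stayed under 1 CPM in every pupal library (interaction 2.38 ± 0.51, adjusted p = 0.0362). The tubulin gene betaTub56D (0.73 ± 0.14, adjusted p = 0.0254), the retinol dehydrogenase gene Rdh1 (1.39 ± 0.29, adjusted p = 0.0362) and the Arp2/3 complex gene Arpc3B (1.90 ± 0.44, adjusted p = 0.0459) also rose in adults. The calls of these 5 genes were lost without 8 to 10 of the libraries in turn, at adjusted p up to 0.115, and that of Arpc3B also with limma voom (adjusted p = 0.0522) and with the length trend removed (0.0538). The pupal ranges of betaTub56D were separate too, with MeHg below control (−0.18 ± 0.10, adjusted p = 0.329).

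The largest adult rises among named genes were of immune and secreted products and came with uneven libraries. The lysozyme gene LysX had 13.8, 133 and 53.3 CPM in MeHg adults against 0.445, 2.81 and 1.32 CPM in control adults, and 15.1, 15.1 and 35 CPM in MeHg pupae against 32.9, 25.6 and 13.3 CPM in control pupae (interaction 5.61 ± 1.21, adjusted p = 0.0441). The defensin gene Def had 19.4, 15.8 and 6.31 CPM in MeHg adults against 1.18, 1.44 and 1.29 CPM in control adults, and 58.9, 122 and 76.3 CPM in MeHg pupae against 83.8, 54.6 and 41.4 CPM in control pupae (interaction 2.89 ± 0.62, adjusted p = 0.0435). The larval serum protein gene Lsp1alpha, a fat body product, had 19.3, 32.8 and 13.8 CPM in MeHg adults against 2.42, 3.87 and 3.25 CPM in control adults (interaction 3.42 ± 0.66, adjusted p = 0.0308). The sum of the fat body markers, Lsp1alpha included, was lower in MeHg than in control adults, as given above. Adult groups were separate in LysX, Def and Lsp1alpha, while the MeHg adults themselves varied widely for LysX. The 4 gut markers, which include digestive enzymes, summed to 9950, 5020 and 5930 CPM in MeHg adults against 3270, 6190 and 379 CPM in control adults, and to at most 2.11 CPM in MeHg pupae and 2.34 CPM in control pupae; the part of gut RNA in LysX and in other adult rises was not tested. MeHg adult replicate 3, the library with the most LysX, also held 96.8 CPM of the 3 male accessory gland markers, against at most 1.96 CPM in each of the other libraries. Without it the interaction was 4.60 for LysX (adjusted p = 0.0827), 2.77 for Def (0.0915) and 3.01 for Lsp1alpha (0.0614), and the part of accessory gland RNA in these genes was not tested. The calls of LysX, Def and Lsp1alpha were lost without 8 to 10 of the libraries in turn (adjusted p up to 0.119) and with limma voom, and those of LysX and Def also with no low-count filter (0.0785 and 0.0562). The ecdysone-induced gene ImpL1 had no counts in any MeHg adult library and 2, 3 and 3 counts in the control adults, so its call rests on levels at the counting limit of 3 counts a library and no fold is given.

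**Figure D4:**
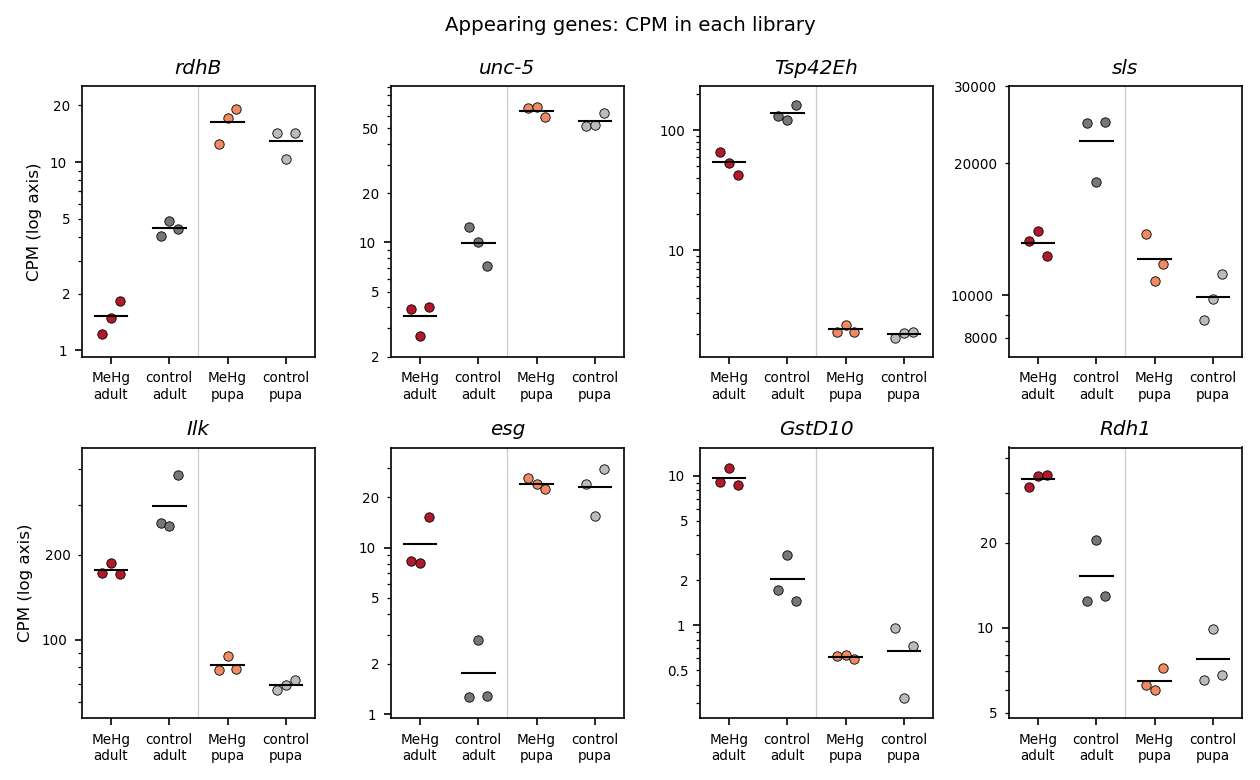
Each panel is an appearing gene, each point a library and each bar the mean of 3 libraries, in CPM on a log axis. In adults the MeHg libraries of rdhB, unc-5, Tsp42Eh, sls and Ilk lie below their controls and those of esg, GstD10 and Rdh1 above.

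The glutathione and thioredoxin list had 51 tested members, of which GstO2, Prx6a, GstZ1, GstE13 and GstD10 were called for the interaction, all 5 above 0, against 172 of 11347 genes called above 0 (1.52%). Of the 51, 39 had a positive interaction, against 5611 of all 11347, with a median of 0.43 against 0.00 over all genes. By stage, 5 members rose and 3 fell in adults, against 3.67% and 3.93% of all genes. In pupae none rose and 4 fell, against 0.917% and 2.09% of all genes. The stages at which these 5 were called differed: GstZ1 and Prx6a were called lower in pupae and not called in adults, although the adult ranges of GstZ1 were separate. GstE13 was called lower at both stages, GstO2 was called higher in adults and lower in pupae, and GstD10 was called higher in adults and not called in pupae. The delta-class transferase gene GstD1 rose in adults (0.52 ± 0.14, adjusted p = 0.0424) with 842, 1080 and 1060 CPM in MeHg adults against 653, 578 and 842 CPM in control adults, but its interaction of 0.46 ± 0.19 was not called (adjusted p = 0.218). The glutathione synthesis gene Gclc (0.43 ± 0.26, adjusted p = 0.387) and the stress factor gene cnc (−0.34 ± 0.11, adjusted p = 0.131) were not called either. Reads of near-identical transferases, metallothioneins and lysozymes could have been split among copies in counting, and whether counting used the strand is not given in the sources used here, so values of such families and of overlapping genes are uncertain.

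Metal handling genes gave no interaction call among 37 tested, with 29 above 0, against 5611 of all 11347 genes, and a median of 0.36. In adults 7 rose and 1 fell, and in pupae none rose and 1 fell. Over all genes, 3.67% rose and 3.93% fell in adults, and 0.917% rose and 2.09% fell in pupae. The metallothionein gene MtnA had 444, 398 and 362 CPM in MeHg adults against 133, 199 and 196 CPM in control adults, and 13.9, 11.8 and 19.9 CPM in MeHg pupae against 17.1, 72.6 and 3.98 CPM in control pupae. The adult groups were separate, but control pupae alone ran from 3.98 to 72.6 CPM, and the interaction of 2.22 ± 1.06 was not called (adjusted p = 0.289). In VNC, MtnA had a called pupal rise of 1.90 (adjusted p = 0.0188). Its VNC interaction of −1.72 ± 0.36 was not called (adjusted p = 0.14). MtnE rose in adults (2.23 ± 0.47, adjusted p = 0.0208), with a pupal change of −0.27 ± 0.52 and an interaction of 2.50 (adjusted p = 0.0898). The ferritin subunits Fer1HCH and Fer2LCH rose in adults by 0.63 ± 0.15 and 0.56 ± 0.15 (adjusted p = 0.0323 and 0.045), beside pupal changes of 0.49 and 0.48 that were not called.

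Of 77 cytochrome P450 genes, 1 was called for the interaction, against 2.69% of all genes. This was Cyp9b2 (2.98 ± 0.64, adjusted p = 0.0421). It had 158, 177 and 151 CPM in MeHg adults against 44.8, 81.5 and 68.4 CPM in control adults, and 1.13, 1.89 and 1.81 CPM in MeHg pupae against 5.27, 8.47 and 1.85 CPM in control pupae. The call was lost without 10 of the 12 libraries in turn, at adjusted p up to 0.110, and with no low-count filter (0.0627). The P450 median was 0.385, with 50 genes above 0 and 27 below, against 5611 and 5733 of all 11347 genes.

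Among other lists, those of oxidative phosphorylation and the cell cycle had similar medians at both stages, and the neuronal list did not. The 79 nuclear genes of oxidative phosphorylation had a median log2 change of −0.35 in adults and −0.32 in pupae, with 22 members lower in adults and 3 lower in pupae, against 446 (3.93%) and 237 (2.09%) of all 11347 genes, and none was called for the interaction (median −0.04). These are short transcripts, with a median exonic length of 853 bases, and the shortest 10% of 7729 genes had medians of −0.204 in adults and −0.223 in pupae. With the length trend removed, 16 members were lower in adults and none in pupae, and the list's medians were −0.183 in adults and −0.134 in pupae. The 51 cell cycle and replication genes had medians of 0.44 in adults and 0.45 in pupae. Of the 51, 9 rose and 3 fell in adults, against 3.67% and 3.93% of all genes. In pupae 3 rose, against 0.917% of all genes. Top2 and stg were called for the interaction, both below 0, against 1.17% of all genes. Neuronal genes gave no interaction call among 26, although 21 of the 26 were below 0 and the median was −0.75, or −0.551 with the length trend removed. Their adult median was −0.33 and their pupal one 0.31, none was called at either stage, and the summed level of 5 neuronal markers was 81.6 to 106 CPM in MeHg adults against 89.3 to 144 CPM in control adults and 116 to 151 CPM in MeHg pupae against 105 to 130 CPM in control pupae. None of the 34 genes of the neuromuscular junction was called for the interaction, with 25 below 0 and a median of −0.205, or −0.11 with the length trend removed, at a median exonic length of 6024.5 bases. Beside the neuronal and neuromuscular lists, 5733 of all 11347 genes had an interaction below 0. The neuronal activity gene Arc1 rose in adults (1.55 ± 0.27, adjusted p = 0.0108), with an interaction of 0.94 ± 0.38 that was not called (adjusted p = 0.202).

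**Figure D5:**
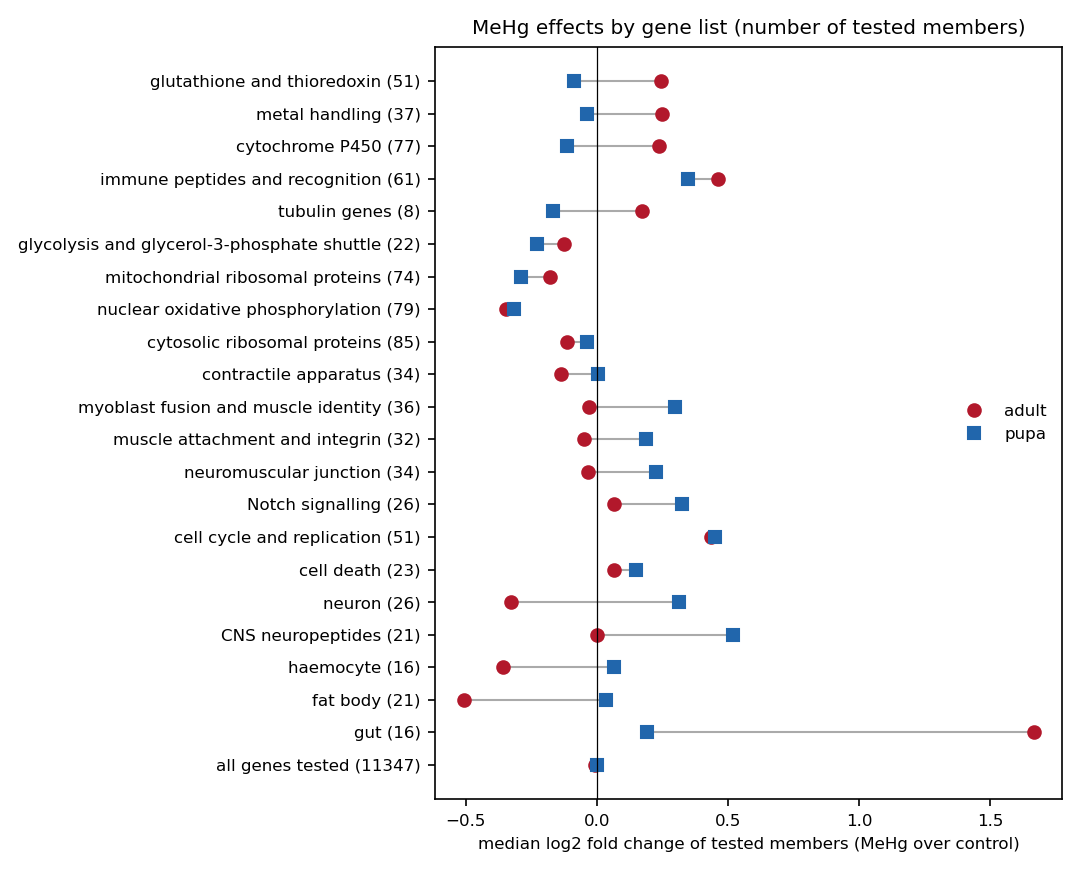
Each row is a gene list with its number of tested members, and the points give the median log2 fold change of MeHg over control in adults (circles) and pupae (squares). The glutathione, metal handling and cytochrome P450 lists lie to the right of their pupal values in adults, the fusion, attachment and neuronal lists to the left, and the oxidative phosphorylation and cell cycle lists have nearly the same median at both stages.

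The nerve cord libraries of the series served to ask whether these stage differences were shared, and whether they came from the same animals as the muscles is not given in the sources used here. Fitted the same way on its 12 libraries, the interaction was called in 1 of 11870 genes (0.00842%), CG34215, which was also called in muscle. Its interaction was 3.54 ± 0.35 (adjusted p = 0.0063) in VNC and 2.81 ± 0.63 (adjusted p = 0.0435) in IFM. Of the 299 muscle genes also tested in VNC, 189 had the same sign of interaction there, against 5162 of all 10795 genes tested in both tissues. The difference between the tissues was itself called in 38 of the 299, against 42 of all 10795 (0.389%), in a fit of all 24 libraries with 8 group means and no term for replicates. The 299 were chosen for an interaction in muscle, which favours such a difference. With a replicate block, a term shared by the muscle and nerve cord libraries of the same stage, treatment and replicate number, 14 of the 10795 were called, all 14 among the 299, and 13 of them were among the 42.

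Those 38 included nemy, with a VNC interaction of −0.00 ± 0.14 and a difference between tissues of 2.72 ± 0.39 (adjusted p = 0.00546). They also included kdn (VNC −0.16, difference 1.63 ± 0.25, adjusted p = 0.00546), rdhB (VNC 0.34, difference −2.23 ± 0.33, adjusted p = 0.00546), unc-5 (VNC 0.04, difference −1.77 ± 0.32, adjusted p = 0.019, or 0.0697 with the block) and vn (VNC 0.16, difference −1.50 ± 0.28, adjusted p = 0.0219). The kainate-type glutamate receptor gene Grik, a fading gene in muscle with an interaction of 1.25 ± 0.27 (adjusted p = 0.0393), had −0.89 in VNC (difference 2.13 ± 0.35, adjusted p = 0.00994). Its muscle call was lost without 11 of the 12 libraries in turn, at adjusted p up to 0.107, with limma voom (0.0826) and with no low-count filter (0.0627). For Prx6a the VNC interaction was 0.80 ± 0.21 (adjusted p = 0.222) and the difference of 1.17 was not called (adjusted p = 0.107), nor was that of sns (−1.76 ± 0.44, adjusted p = 0.0908). Some other fading genes had a VNC interaction of the same sign as in muscle, not called there. In GstE13 it was 1.06 ± 0.18 (adjusted p = 0.0859), with a called pupal fall of −1.115 in VNC (adjusted p = 0.00657). In KFase it was 1.23 ± 0.42 (adjusted p = 0.298), also with a called pupal fall there (−1.74, adjusted p = 0.0328). It was 0.97 ± 0.28 in GstZ1 and −1.70 ± 0.34 in MFS14. The difference between tissues was called in none of these genes.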

How the data were processed

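Libraries of total RNA were stranded, per the labels' protocols. Tools named in the submitters' processing notes are featureCounts, Subread 2.0.1, STAR 2.7.6a and bcl2fastq 2.19.0, with dm6 as the genome build. The authors deposited whole-number counts for 17545 genes per library. The authors' table of normalised values was not used. From the counts, the interaction and both MeHg effects were fitted with edgeR 4.0.16 in R 4.3.3 (TMM, filterByExpr, robust quasi-likelihood F test) on 4 group means of the 12 IFM libraries, with Benjamini-Hochberg adjustment over 11347 genes. The ± after a log2 change is its standard error. P-values measure the spread among pooled samples, which the labels do not say were separate cultures. Members, lists and tests were chosen with earlier results of these data known. The genes named were the 10 largest interactions in each direction among called genes of at least 5 CPM with a symbol, up to 6 more per pattern, up to 4 called members per list, and a fixed set of 21; CG5080, CG16986, CG31145, Atet, Gk2, smash, the genes beside the threshold and list members that were not called for the interaction were chosen after their values were seen. Names and coordinates came from a RefSeq gene table and lengths from an Ensembl annotation. On simulated counts the interaction test recovered 4 of 67 genes changed 1.5-fold, 29 of 67 changed 2-fold and 63 of 66 changed 4-fold. The changed genes were drawn from those with a mean of at least 5 CPM in control pupae and in control adults. An uncalled gene can thus still hold a difference of the smaller sizes. Recovery in genes below that level was not simulated. A larger difference can also go uncalled where libraries vary widely, as in MtnA (2.22 ± 1.06, adjusted p = 0.289). DESeq2 1.42.0, limma 3.58.1 voom, scaling, filter, batch, length and left-out libraries were alternatives. Promoter and protein sequences were not used here.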

Additional observations from a re-analysis of the deposited data

Results flagged for a closer look

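The MeHg effect differed in size or sign between adults and pupae by the interaction test in 305 genes, and the named ones are listed for that reason. The values are interaction log2 changes, adult minus pupal, and causes were not tested. Among reversing genes, interactions above 0 were 3.35 for TpnC4, 2.98 for Cyp9b2, 2.76 for nemy, 2.57 for Gip, 2.03 for axed, 1.98 for CG16986, 1.55 for Sclp, 1.55 for slo and 1.52 for kdn. Further ones were 1.41 for Mocs1, 1.01 for GstO2, 0.98 for fru, 0.91 for Gk2, 0.79 for Rala and 0.74 for mRpL55. The calls of Mocs1, Rala and mRpL55 were lost without 10, 10 and 11 of the 12 libraries in turn (adjusted p up to 0.129). That of fru was lost without 6 (up to 0.0774). With limma voom Mocs1 and mRpL55 were not called either (0.0615 and 0.0523). Among reversing genes, interactions below 0 were −2.52 for Ptth, −1.80 for Mink, −1.56 for Phyhd1, −1.51 for AkhR, −1.47 for ss, −1.44 for CG5080, −1.34 for rpr, −1.34 for Hml and −1.31 for vn. Further ones were −1.03 for smash, −1.002 for stg, −0.998 for Atet, −0.995 for vg, −0.94 for CG31145, −0.84 for Lsd-1 and −0.80 for Top2. The call of ss was lost without 8 of the 12 libraries in turn (adjusted p up to 0.107). It was also lost with limma voom (0.0826) and in the fit of all 24 libraries (0.0623). That of Phyhd1 was lost without 4 of the 12 libraries in turn (up to 0.0583). Among fading genes, interactions above 0 were 2.04 for KFase, 2.01 for Prx6a, 1.61 for Bhmt, 1.57 for Scp1, 1.36 for alpha-Est3, 1.25 for Grik, 1.09 for GstZ1 and 0.96 for GstE13. Among fading genes, interactions below 0 were −1.63 for sns, −1.52 for MFS14, −1.49 for Nepl5, −1.12 for rst, −0.80 for vri, −0.72 for tx and −0.70 for Eip93F. Nepl5 had 0.174 to 0.382 CPM in the adult libraries. Its call was lost without each of the 12 libraries in turn (adjusted p up to 0.11), with DESeq2 (0.055) and with limma voom (0.314). It was also lost with no low-count filter (0.0545) and in the fit of all 24 libraries (0.058). The call of MFS14 was lost without 10 of the 12 libraries in turn (adjusted p up to 0.103). Among appearing genes, interactions above 0 were 5.61 for LysX, 4.17 for Erasp, 3.42 for Lsp1alpha, 2.89 for Def, 2.51 for esg, 2.38 for GstD10, 2.18 for veil, 1.90 for Arpc3B, 1.39 for Rdh1 and 0.73 for betaTub56D. Erasp had 3.62, 20.2 and 14 CPM in MeHg adults against 0.541, 0.456 and 0.838 CPM in control adults. All its pupal libraries lay between 0.272 and 0.638 CPM. The call of Erasp was lost without 11 of the 12 libraries in turn (adjusted p up to 0.095) and with limma voom (0.241). That of veil was lost without 10 (up to 0.103) and with no low-count filter (0.0635). Among appearing genes, interactions below 0 were −1.86 for rdhB, −1.70 for unc-5, −1.48 for Tsp42Eh, −1.31 for Ndg, −1.29 for daw, −1.06 for sls, −0.98 for Ilk, −0.73 for unc-45 and −0.67 for Tak1. Further ones were −0.66 for Akt and −0.61 for Xrp1.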

How the results depend on the processing

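All 305 genes called for the interaction in IFM kept their sign under the 22 alternatives run. The alternatives reuse the libraries that gave the calls, which favours a kept sign. How many genes passed the threshold depended on the setting, and the cause was not tested. DESeq2 called 966 genes for the interaction (557 above 0, 409 below), 1486 for the adult and 933 for the pupal effect. One fit of all 24 libraries called 771 (331 above, 440 below), 1410 and 587. Limma voom called 879 in pupae. With title tag as batch the counts were 0 (0 above, 0 below), 81 and 154, and among tags 7_7 and 7_10, added after seeing the data, 0 (0 and 0), 50 and 7; both fits have fewer residual degrees of freedom, and at an unadjusted p under 0.05 the main fit had 2233 genes. The replicate block called 18 (17 above, 1 below), 331 and 0; same-numbered libraries correlated at −0.325, 0.183 and −0.08 in pupae and −0.333 and 0.307 in adults, not all above 0.1, so pairing was not established; same-numbered pupae also share a title tag. Leaving out 1 library gave 39 (without MeHg pupal replicate 3) to 447 (without control adult replicate 2) interaction calls, 28 to 280 above and 11 to 167 below 0, with 72, 80, 90, 93, 102, 121, 132 and 141 without MeHg pupal 2, MeHg adult 4, control pupal 2, MeHg pupal 1, control adult 1, MeHg adult 3, control adult 3 and control pupal 1; adult calls ran from 210 (without MeHg adult 4) to 1080 and pupal ones from 101 (without MeHg pupal 3) to 344. The 42 genes called for IFM minus VNC became 14 with a replicate block shared by the tissues, added after seeing the data. In VNC the 1 call became 2 with RLE, 221 with DESeq2, 4 with voom, 5 with the tag as batch, 0 with all 24 libraries, 5 with the length trend removed, 2 among the tags 7_7 and 7_10, and 0 to 11 with 1 library left out. Of 68 called genes named, 15 kept the call without each library in turn, 10 lost it without 1 to 4 of them and 43 without more. The uncalled interaction of Mhc was 0.126 with the tag as batch, 0.164 with the length trend removed, 0.251 among tags 7_7 and 7_10, and −0.18 to 0.138 with 1 library left out. Counts under about 1 CPM limit, among others, the pupal values of TpnC4, GstD10, KFase and Erasp and the adult values of Nepl5 and ImpL1. They also limit those of Erasp in control adults and of Ptth in MeHg adults.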
